A study of Mus musculus with 9 samples.

Results

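The 10 genes described here encode proteins of the contacts between cells: the junctional adhesion molecules *Jam2*, *Jam3* and *F11r*, the claudins *Cldn1*, *Cldn5*, *Cldn10*, *Cldn11*, *Cldn12* and *Cldn19*, and the scaffold *Tjp1*. They were found by gene symbol among the 55401 rows of the count table, and all 10 were present. The list was chosen by results from these same embryos, the low counts of *Jam2* and *Cldn19* in *Npas3*+/- (HET) forebrain among them, so the differences of these 10 genes between genotypes are given as a description, from which no significance is drawn. The data are RNA-seq read counts from bulk forebrain of 5 WT (*Npas3*+/+) and 4 HET female mouse embryos at embryonic day 16 to 17, all on the C57BL/6J background and with WT littermates as controls. HET embryos carry a constitutive deletion of 1 *Npas3* allele in every cell, with no restriction to astrocytes, and each library is a separate numbered embryo. The labels name astrocytes as the cell type, but the summed level of 6 neuronal markers was 5899 to 6836 CPM (read counts scaled to the size and composition of each library) against 896 to 1041 CPM for 9 astrocyte markers, so the libraries are read here as mixed forebrain tissue.

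Tight junctions seal the space between neighbouring cells. Claudins form the strands of the seal, and junctional adhesion molecules (JAMs) are immunoglobulin-like proteins at the same contacts that bind one another and leukocyte integrins. ZO-1, the product of *Tjp1*, binds both through its PDZ domains and ties them to the actin cytoskeleton. In the brain, tight junctions close the endothelium of the blood-brain barrier, where *Cldn5* is the main claudin, and the epithelium of the choroid plexus, which secretes cerebrospinal fluid and uses *Cldn1*, *Cldn2* and *Cldn3*. *Cldn11* is the claudin of central myelin and of the arachnoid barrier, and *Cldn19* is best known from kidney tubules and from Schwann cells.

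Total counts were 42640218 to 62830060 per library. Some libraries stood apart in choroid plexus RNA: *Ttr*, the transthyretin gene of that epithelium, reached 2127 to 2631 CPM in WT embryos 15, 16 and 41 and 467 CPM in HET embryo 24, and lay at 0.770 to 11.7 CPM in the other 5 embryos. Summed over 10 choroid plexus markers, the level ranged from 19.2 to 2908 CPM in WT and from 29.2 to 536 CPM in HET embryos. Of the 10 markers, *Kl* alone was at 0 in any library, in WT embryo 5. Results that move with *Ttr*, and those of *Jam2* and *Cldn19*, are therefore also given for the 5 embryos below 100 CPM of *Ttr*, which are WT 5 and 43 and HET 5, 6 and 7. *Npas3* itself averaged 36.2 ± 4.18 CPM over the 5 WT libraries (SD) against 29.5 ± 3.09 CPM over the 4 HET libraries (SD), or 81.4% of WT. The embryos overlapped, HET embryo 7 at 34.1 CPM being above WT embryo 16 at 29.7 CPM, and the gene was not called (adjusted p = 0.877 in edgeR's quasi-likelihood test).

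The sequence upstream of the start site was read from RefSeq on GRCm38.p6, where a promoter was listed for 8 of the 10 genes, *Jam2* and *Jam3* not among them. The E-box CANNTG, the letters that basic helix-loop-helix factors such as NPAS3 bind, was searched on both strands in the 250 bases before each start; the pattern reads the same on either strand. It was present before 3 of the 8 genes, *F11r*, *Cldn1* and *Cldn10*. Of all 27025 genes with a promoter listed, 69.3% had it before at least 1 start. Counted by start, 4 of the 12 windows of these 8 genes held it, against 66.2% of all 32851 promoters of this length. The windows are not all separate, since those of *Cldn19* overlap one another, as do those of *Cldn12*. In the downstream window of *Cldn10*, 218 of the 250 bases, with both of its E-boxes, lie in the annotated exon part of the gene. The sequences of *Cldn19*, *Cldn10* and *Cldn1* are shown because the first was low in every HET embryo and had no E-box in its windows, *Cldn10* was above WT in every HET embryo and had 2 before its upstream start, and *Cldn1*, also with 2, varied most between embryos. They run 5′ to 3′ on the strand of the gene, E-boxes are in capitals, and bases that lie in an annotated exon of the gene were removed. The *Cldn19* sequence is chr4:119255191-119255413 on the plus strand, that of *Cldn10* is chr14:118787621-118787870 on the plus strand, and that of *Cldn1* is chr16:26371842-26372089 on the minus strand.
Cldn19: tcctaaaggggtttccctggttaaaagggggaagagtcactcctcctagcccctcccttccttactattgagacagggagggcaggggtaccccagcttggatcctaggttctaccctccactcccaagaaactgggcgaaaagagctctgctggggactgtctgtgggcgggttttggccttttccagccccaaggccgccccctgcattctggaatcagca
Cldn10: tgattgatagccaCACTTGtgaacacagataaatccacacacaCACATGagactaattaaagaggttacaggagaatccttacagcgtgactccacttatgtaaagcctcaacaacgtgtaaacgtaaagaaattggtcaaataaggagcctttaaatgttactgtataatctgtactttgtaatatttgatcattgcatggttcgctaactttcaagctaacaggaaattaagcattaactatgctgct
Cldn1: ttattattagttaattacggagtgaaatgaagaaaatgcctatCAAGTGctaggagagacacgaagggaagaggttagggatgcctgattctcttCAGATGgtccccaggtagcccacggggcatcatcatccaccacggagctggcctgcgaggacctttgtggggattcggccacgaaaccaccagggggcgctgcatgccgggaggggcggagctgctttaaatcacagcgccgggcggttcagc
The stricter E-box CACGTG was before none of the 8 genes, and before 6.86% of all genes. The core ACGTG, of which CACGTG is a special case, was before *Cldn10* alone, and before 18.5% of all genes. These letters mark a match in the sequence and say nothing of binding.

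Among the JAMs, *Jam2* was much lower in HET forebrain, *F11r* was lower on average and *Jam3* was nearly level. *Jam2* (ENSMUSG00000053062, plus strand of chromosome 16 from 84774123 to 84825928), which encodes JAM-B, was at 50.3, 49.4, 39.8, 47.7 and 48.6 CPM in WT embryos 5, 15, 16, 41 and 43. It was at 13.8, 17.4, 15.9 and 14.4 CPM in HET embryos 5, 6, 7 and 24. Every HET embryo was far below every WT embryo, and HET embryo 24, the one with high *Ttr*, lay among the other HET embryos. The mean fell from 47.2 ± 4.25 CPM (SD, n = 5) to 15.4 ± 1.61 CPM (SD, n = 4), or 32.6% of WT, a log2 fold change of −1.62 (SE 0.09, 95% interval −1.82 to −1.42). Among the embryos with *Ttr* under 100 CPM the log2 fold change was −1.65 (SE 0.12). In bulk tissue, fewer cells of a type and less RNA per cell cannot be told apart.

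*Jam3* (ENSMUSG00000031990, minus strand of chromosome 9 from 27097384 to 27155421), which encodes JAM-C, a binding partner of JAM-B, was at 53.2, 37.4, 44.0, 39.0 and 43.1 CPM in WT embryos 5, 15, 16, 41 and 43. In HET embryos 5, 6, 7 and 24 it was at 47.3, 43.8, 33.1 and 37.5 CPM. The groups overlapped widely, with a log2 fold change of −0.10 (SE 0.12, 95% interval −0.37 to 0.17). The antisense gene *Gm48796* overlaps 36.2% of *Jam3* exon sequence, and *Gm48796* had 618 to 942 counts per embryo, so without a stated strand setting part of the *Jam3* count is uncertain.

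*F11r* (ENSMUSG00000038235, plus strand of chromosome 1 from 171437535 to 171464603), the gene of JAM-A, was at 7.08, 6.46 and 6.73 CPM in WT embryos 15, 16 and 41, and at 3.78 and 3.05 CPM in WT embryos 5 and 43. In HET embryos 5, 6, 7 and 24 it was at 3.81, 3.61, 4.13 and 3.74 CPM, close to the 2 lower WT embryos and below the 3 higher ones. The high WT values were those of the embryos with high *Ttr*, and HET embryo 24, with *Ttr* at 467 CPM, was not raised. The log2 fold change was −0.50 (SE 0.24, 95% interval −1.03 to 0.02) over all embryos and 0.18 (SE 0.18) among those with low *Ttr*. In a fit with choroid plexus RNA as a covariate (markers averaged on the log2 scale), the log2 fold change of *F11r* was −0.13 (SE 0.15). The 9 meningeal fibroblast markers summed to 44.3 to 57.8 CPM in WT embryos 15, 16 and 41 and 17.6 to 22.3 CPM in WT embryos 5 and 43. In HET embryos they summed to 24.7 to 31.6 CPM, with HET embryo 24 at 30.9 CPM. The part of choroid plexus or meningeal RNA in the *F11r* value over all embryos was not tested.

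The makeup of JAM RNA differed accordingly. Per kilobase of exon, *Jam2* made up 28.9% to 36.3% of the summed level of the 3 JAM genes in the WT embryos and 12.4% to 18.1% in the HET embryos. *Jam3* made up 51.9% to 63.1% in WT and 71.3% to 79.9% in HET. The ratio of *Jam2* to *Jam3* CPM within an embryo was 0.903 to 1.32 in WT and 0.292 to 0.479 in HET. None of these 3 ranges overlapped between genotypes. All 3 contain the level of *Jam2*, whose low counts helped choose the list, so they restate its fall and are no separate result. The *Jam3* level itself overlapped between genotypes, and part of its count is uncertain.

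**Figure D1:**
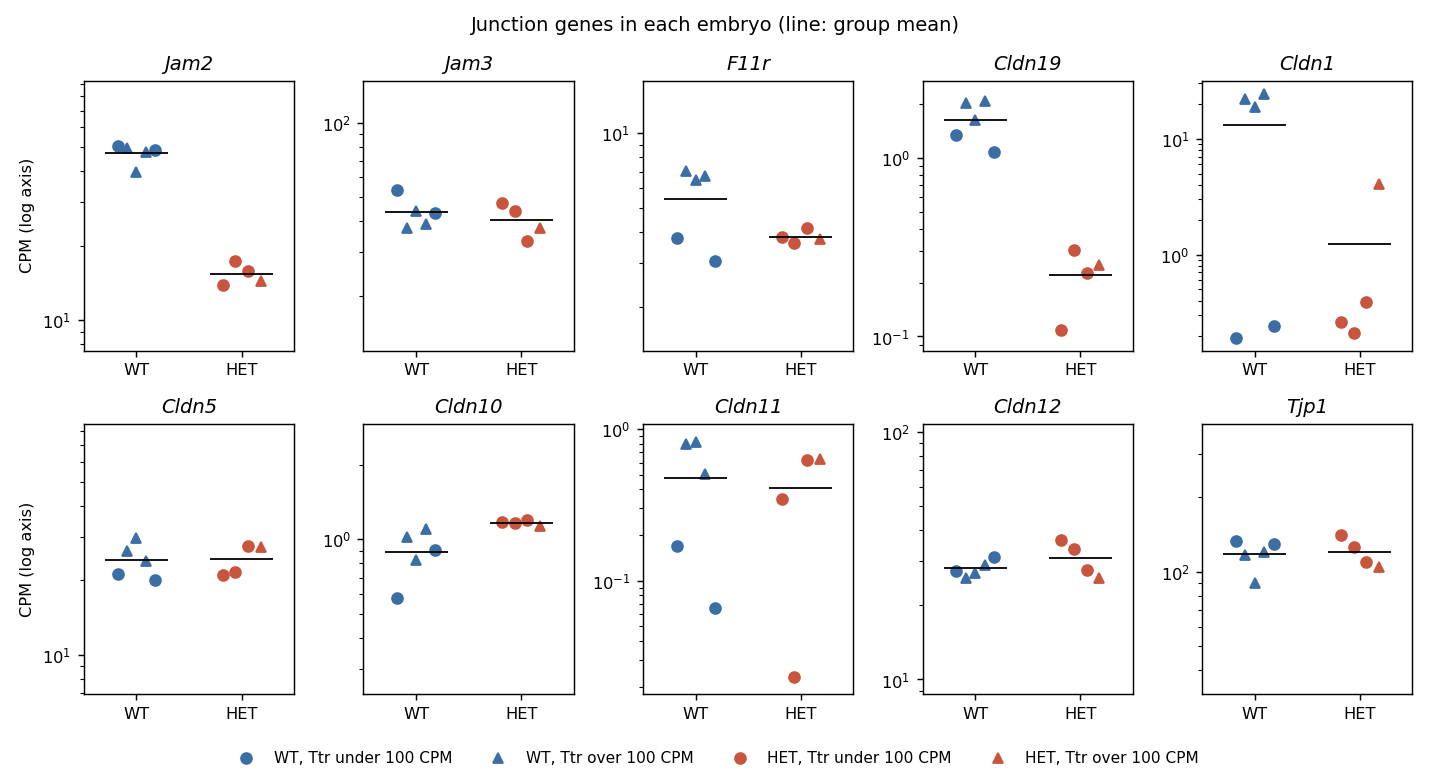
Level of each of the 10 genes in each embryo, in CPM on a log axis, with WT in blue, HET in red, triangles for embryos with *Ttr* over 100 CPM, circles for those below, and a line at the group mean. The *Jam2* and *Cldn19* points of HET embryos all lie below those of WT, *Cldn10* points of HET lie above, and *Cldn1* separates by *Ttr* in both groups.

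Among the claudins, *Cldn19* was lower in every HET embryo, *Cldn10* was slightly higher in every HET embryo, *Cldn1* followed choroid plexus RNA, and *Cldn5*, *Cldn11* and *Cldn12* overlapped between genotypes. *Cldn19* (ENSMUSG00000066058, plus strand of chromosome 4 from 119255414 to 119262438) was a low transcript, at 1.35, 2.03, 1.63, 2.06 and 1.08 CPM in WT embryos 5, 15, 16, 41 and 43, from 56, 92, 75, 131 and 49 counts. In HET embryos 5, 6, 7 and 24 it was at 0.108, 0.303, 0.227 and 0.250 CPM, from 5, 13, 11 and 13 counts. The groups were far apart, and within WT the embryos with high *Ttr* were the higher ones. WT embryos averaged 1.63 ± 0.428 CPM (SD, n = 5), HET embryos 0.222 ± 0.0822 CPM (SD, n = 4), or 13.6% of WT, with a log2 fold change of −2.88 (SE 0.31, 95% interval −3.56 to −2.21). It was −2.52 (SE 0.40) among the embryos with low *Ttr*. *Gm12927*, which overlaps 2.11% of its exonic bases on the opposite strand, had 0 to 2 counts per embryo.

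*Cldn1* (ENSMUSG00000022512, minus strand of chromosome 16 from 26356642 to 26371841) was at 21.98, 18.7 and 24.1 CPM in WT embryos 15, 16 and 41, and at 0.192 and 0.243 CPM in WT embryos 5 and 43. In HET embryos 5, 6 and 7 it was at 0.260, 0.210 and 0.393 CPM, and HET embryo 24 had 4.05 CPM. All 4 high values were in the libraries with high *Ttr*, in either genotype. The log2 fold change of −3.38 over all embryos (SE 1.25, 95% interval −6.14 to −0.62) became 0.41 (SE 0.44) among the embryos with low *Ttr*. In a fit with choroid plexus RNA as a covariate (markers averaged on the log2 scale), it was −0.04 (SE 0.27). The embryos with low *Ttr* had only 8 to 19 counts of *Cldn1* each.

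*Cldn2*, a pore-forming claudin of the same epithelium and not among the 10 genes, had 11.5, 8.55 and 9.52 CPM in WT embryos 15, 16 and 41 and 0.168 and 0.155 CPM in WT embryos 5 and 43. HET embryos 5, 6 and 7 had 0.563, 0.582 and 0.723 CPM, and HET embryo 24 had 2.09 CPM. As with *Cldn1*, the libraries with high *Ttr* were the high ones, but HET embryos 5, 6 and 7 lay above WT embryos 5 and 43. Among these 5 embryos, 17.4% of all tested genes did not overlap between genotypes in either direction, so such a separation was common. The log2 fold change of *Cldn2* was −2.59 over all embryos and 1.95 among those with low *Ttr* (adjusted p = 0.467 in edgeR's quasi-likelihood test).

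**Figure D2:**
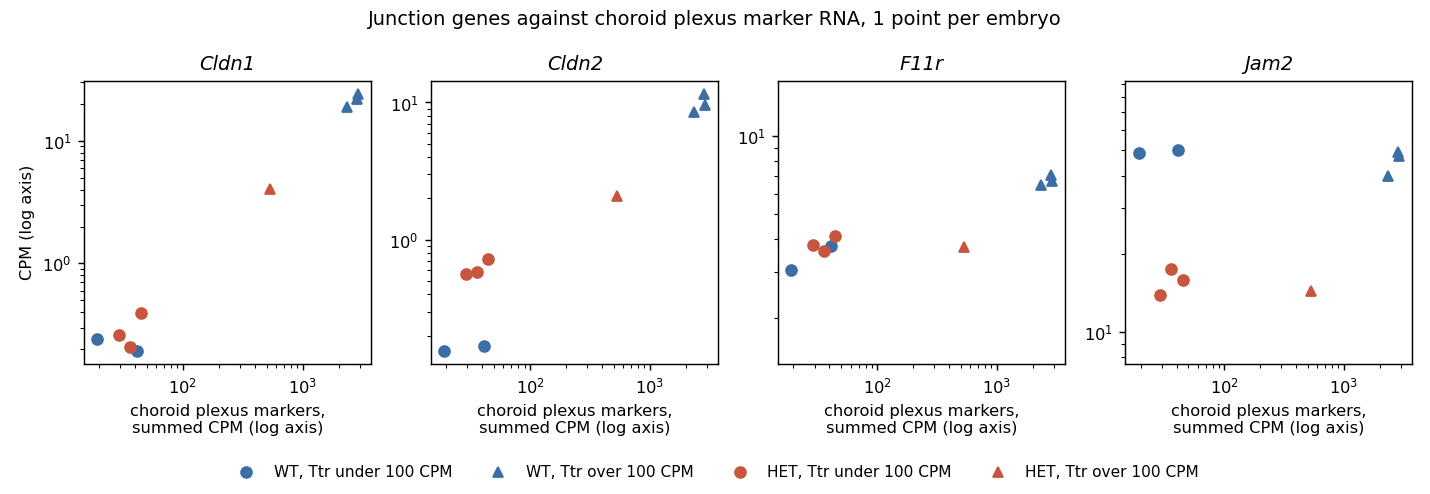
Level of *Cldn1*, *Cldn2*, *F11r* and *Jam2* (vertical, CPM, log axis) against the summed CPM of 10 choroid plexus markers (horizontal, log axis), 1 point per embryo, in the same colours and symbols as the plot of the genes by embryo. *Cldn1* and *Cldn2* are highest where the marker sum is 2353 to 2908 CPM, whereas *Jam2* is split by genotype at both low and high sums.

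*Cldn10* (ENSMUSG00000022132, plus strand of chromosome 14 from 118787908 to 118875489), a claudin with ion-selective isoforms, was at 0.577, 1.02, 0.826, 1.10 and 0.905 CPM in WT embryos 5, 15, 16, 41 and 43. It was at 1.17, 1.16, 1.20 and 1.13 CPM in HET embryos 5, 6, 7 and 24. The closest embryos, WT 41 and HET 24, differed by little, and all libraries had only 24 to 70 counts of the gene. The log2 fold change was 0.39 (SE 0.19, 95% interval −0.03 to 0.81) and 0.66 (SE 0.27) among the embryos with low *Ttr*.

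*Cldn11* (ENSMUSG00000037625, plus strand of chromosome 3 from 31149920 to 31164324) had 1 to 38 counts per embryo. It was at 0.168, 0.796, 0.826, 0.504 and 0.0662 CPM in WT embryos 5, 15, 16, 41 and 43, and at 0.346, 0.0233, 0.620 and 0.634 CPM in HET embryos 5, 6, 7 and 24. Both genotypes spanned a wide range, and within WT the 3 embryos with high *Ttr* were the high ones. The interval of the log2 fold change of −0.20 ran from −1.76 to 1.35, so a difference in either direction was not resolved, and among the embryos with low *Ttr* the value was 1.54 (SE 1.09). For comparison, the 9 oligodendrocyte lineage markers summed to 70.3 to 107 CPM in WT and 75.1 to 120 CPM in HET embryos. The 9 meningeal fibroblast markers summed to 17.6 to 57.8 CPM in WT and 24.7 to 31.6 CPM in HET embryos. No list of arachnoid barrier markers was among those used. The meningeal sum was 44.3 to 57.8 CPM in WT embryos 15, 16 and 41 and 17.6 to 22.3 CPM in WT embryos 5 and 43, and its part in the *Cldn11* values was not tested.

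*Cldn5* (ENSMUSG00000041378, plus strand of chromosome 16 from 18776847 to 18778262) was at 20.01 to 29.6 CPM in WT and 21.0 to 27.6 CPM in HET embryos, with a log2 fold change of 0.01 (95% interval −0.28 to 0.30). The 10 endothelial markers summed to 141 to 190 CPM in WT and 139 to 150 CPM in HET embryos, with 0 of the 10 past the threshold across all genes. Of the 10 markers, 8 had a log2 fold change below 0, and the median over the 10 was −0.19. The sum includes *Slco1a4*, which had 12.2 to 18.4 CPM in WT embryos 15, 16 and 41, 3.61 CPM in HET embryo 24 and 0.0722 to 0.289 CPM in the other 5 embryos. *Cldn12* (ENSMUSG00000046798, minus strand of chromosome 5 from 5489537 to 5514958), an atypical and widely expressed claudin, was at 25.7 to 31.3 CPM in WT and 25.8 to 36.4 CPM in HET embryos, with a log2 fold change of 0.13 (95% interval −0.10 to 0.37). *Tjp1* (ENSMUSG00000030516, minus strand of chromosome 7 from 65296165 to 65527781) was at 90.1 to 133 CPM in WT and 104 to 140 CPM in HET embryos, with a log2 fold change of 0.03 (95% interval −0.24 to 0.29). For all 3 genes the interval leaves room for a change of at most 0.37 on the log2 scale in either direction.

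**Figure D3:**
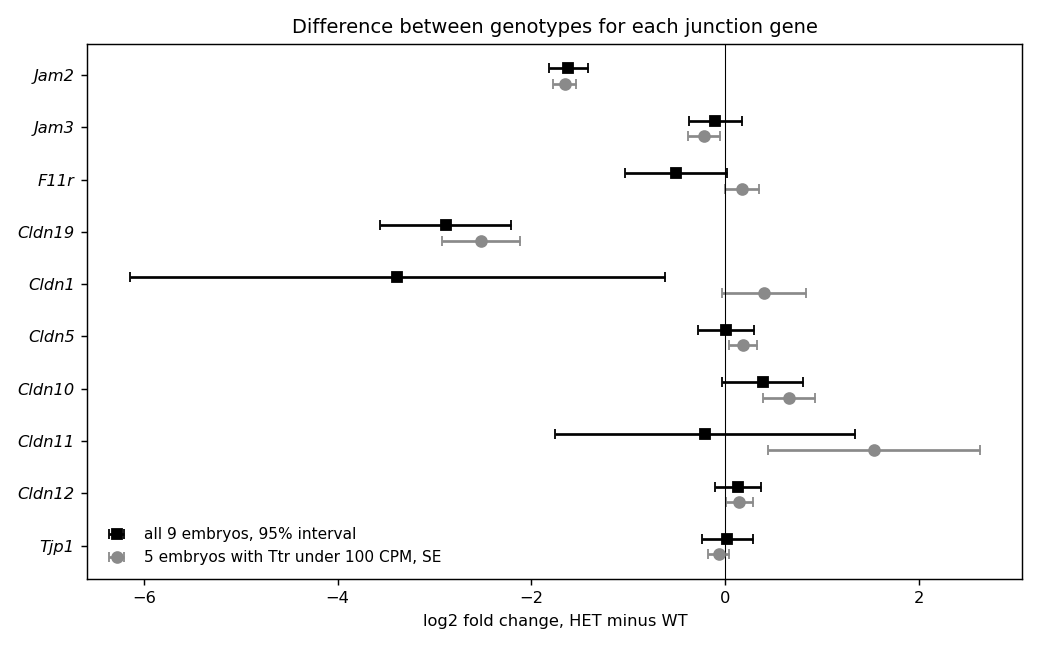
Log2 fold change of HET relative to WT for the 10 genes, as black squares with 95% intervals over all 9 embryos and as grey circles with standard errors over the 5 embryos with *Ttr* under 100 CPM. *Jam2* and *Cldn19* stay below 0 in both, while *Cldn1* moves from −3.38 to 0.41 and *F11r* from −0.50 to 0.18.

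Per kilobase of exon, so that genes can be compared with one another, *Cldn5*, *Tjp1* and *Jam3* were the most abundant in WT forebrain, at 17.1 ± 2.73, 15.1 ± 2.16 and 13.5 ± 1.93 CPM per kb (SD, n = 5), with overlapping ranges. *Jam2* had rank 4 at 7.80 ± 0.703 CPM per kb, below *Jam3* in 5 of 5 embryos without overlap. *Cldn12* followed at 6.65 ± 0.507 CPM per kb, below *Jam2* within each of the 5 embryos although their ranges overlapped. *Cldn1* and *F11r* came next at 2.696 ± 2.45 and 2.03 ± 0.699 CPM per kb and overlapped. The place of *Cldn1* rests on the 3 WT embryos with high *Ttr*, since the lowest WT embryo had 0.0397 and the highest 4.99 CPM per kb. *Cldn19*, *Cldn10* and *Cldn11* were lowest, at 0.383 ± 0.100, 0.342 ± 0.0780 and 0.253 ± 0.187 CPM per kb, each overlapping the next. In HET forebrain the first 3 genes kept their order, *Cldn12* at 7.30 ± 1.18 CPM per kb (SD, n = 4) stood above *Jam2* at 2.54 ± 0.266 without overlap, and *Cldn19* was last at 0.0521 ± 0.0193 CPM per kb. The length is that of all annotated exons of a gene, which overstates the length of a gene transcribed mainly as 1 short isoform.

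**Figure D4:**
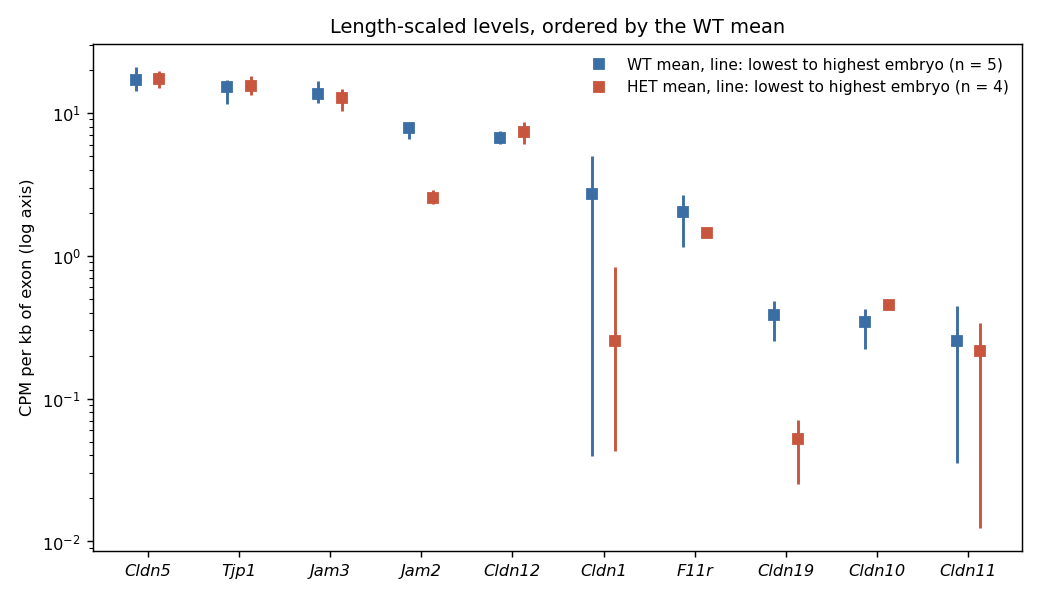
Mean level per kilobase of exon (log axis) of the 10 genes in WT (blue, n = 5) and HET (red, n = 4) embryos, in the order of the WT mean, with a line from the lowest to the highest embryo. In the order of HET levels *Jam2* moves from rank 4 to 5, *Cldn1* from rank 6 to 8 and *Cldn19* from rank 8 to 10.

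In edgeR's quasi-likelihood test over 17818 genes, 2 of the 10 genes, *Jam2* and *Cldn19*, were called lower in HET at an adjusted p under 0.05 and 0 were called higher, where 0.112% of all tested genes were called lower and 0.0281% higher. Embryos of the genotypes did not overlap for 3 of the 10 genes, against 1.85% of tested genes: HET lay below WT for 2, against 1.07%, and above WT for 1, against 0.786%. Nothing is read from these counts or calls, here or under other settings, because the same contrast had chosen the list. All 10 genes passed the filter on low counts, *Cldn19* through its WT embryos. Among the embryos with low *Ttr*, *Jam2* was still called, where 0.0839% of tested genes were, and *Cldn19* was not.

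To see whether other parts of the same junctions differed between genotypes, 100 further genes were taken from a list written by nomenclature and textbook role. Of these, 71 were tested, 27 had too few counts, at most 21 in any embryo, and 2 symbols were not found. None of the 71 genes passed the adjusted threshold in edgeR's quasi-likelihood test, where 0.140% of all tested genes did, and the lowest adjusted p was 0.903. DESeq2 also called 0. At an unadjusted p under 0.05, 5 genes were lower and 3 higher, 11.3% of the list against 5.42% of all tested genes. The median log2 fold change of the 71 genes was −0.005, as over all genes tested, with 37 below 0 and 34 above.

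The 4 tested relatives of the JAMs had log2 fold changes of −0.28 to 0.13. *Cxadr*, the coxsackie and adenovirus receptor, led in abundance, with WT embryos at 479 ± 36.6 CPM (SD, n = 5), HET embryos at 477 ± 26.3 CPM (SD, n = 4) and a log2 fold change of −0.01 (95% interval −0.17 to 0.15). *Clmp* and *Igsf11* were at 0.10 and 0.13 on the same scale. Of the 7 integrin genes whose products bind JAMs, *Itgb1* and *Itga4*, which together form a receptor of JAM-B, had log2 fold changes of −0.10 (95% interval −0.26 to 0.07) and −0.07 (95% interval −0.37 to 0.24), and *Itgav* was at −0.07. *Itgb3* was the one gene of the list whose embryos did not overlap, with WT at 1.03 ± 0.109 CPM (SD, n = 5), HET at 0.791 ± 0.0862 CPM (SD, n = 4) and a log2 fold change of −0.38 (SE 0.16, adjusted p = 0.908 in edgeR's test). That is 1.41% of the list, where 1.85% of all tested genes did not overlap.

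Of 29 other claudin symbols 7 were tested, and 11 had no count in any embryo. For each library taken alone, a count of 0 leaves room for an expected count of up to 3 (95% upper bound). *Cldn3*, with WT at 8.59 ± 1.85 CPM (SD, n = 5) and HET at 9.09 ± 0.682 CPM (SD, n = 4), had a log2 fold change of 0.08 (95% interval −0.27 to 0.43), and *Cldn34c1* had −0.01. *Ocln*, the gene of occludin, had 9.11 to 11.01 CPM in WT embryos 15, 16 and 41 but 3.25 and 3.58 CPM in WT embryos 43 and 5, and all HET embryos lay at 3.83 to 6.96 CPM. The log2 fold change of *Ocln* was −0.47 (SE 0.37) over all embryos and 0.63 (SE 0.26) among those with low *Ttr*, so it changed sign as *F11r* did. *Lsr* and *Ildr2*, angulins of tricellular contacts, had log2 fold changes of 0.12 and 0.10.

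All 28 scaffold and polarity genes were tested. The abundant *Lin7c*, *Afdn* and *Magi1* had log2 fold changes of −0.04, 0.10 and 0.12, each with an interval that held 0. The lowest values were −1.996 for *Crb3* and −1.03 for *Cgnl1*, genes of a polarity complex and of paracingulin, which are named after their values were seen. Both were high in WT embryos 15, 16 and 41, at 1.15 to 1.39 CPM for *Crb3* and 14.2 to 22.4 CPM for *Cgnl1*, and lower in WT embryos 5 and 43, at 0.0962 and 0.110 CPM and at 4.69 and 5.19 CPM. HET embryos 5, 6 and 7 had 0.0866, 0.140 and 0.165 CPM of *Crb3* and 5.30, 5.19 and 6.63 CPM of *Cgnl1*, and HET embryo 24 was the highest HET embryo for both, at 0.422 and 8.29 CPM. *Cgnl1* had a log2 fold change of 0.21 (SE 0.18) where *Ttr* was low, and *Crb3* did not pass the filter on low counts there. In adherens junction genes, *Ctnnb1* (beta-catenin), *Cdh2* (N-cadherin) and *Ctnna2* had log2 fold changes of −0.09, −0.03 and −0.003. In the gap junction group of the list, in which pannexin genes were placed with the connexins, *Panx1* (pannexin 1), *Gja1* (connexin 43 of astroglia) and *Gjc1* had 0.03, −0.01 and 0.15.

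**Figure D5:**
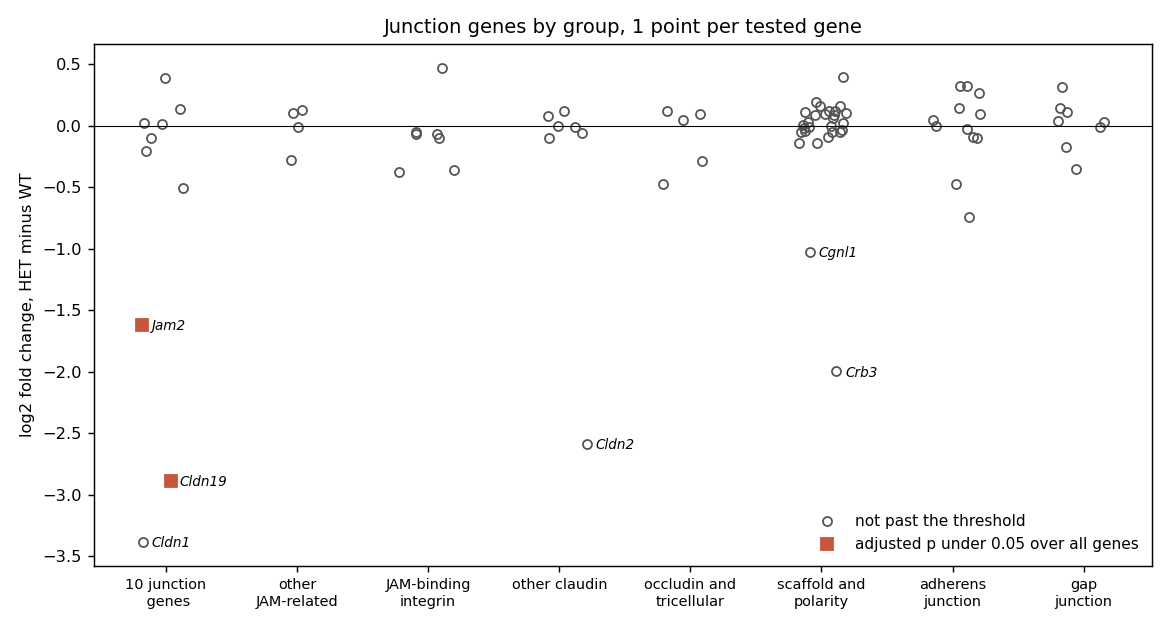
Log2 fold change of HET relative to WT for the 10 genes and for the 71 tested genes of 7 further junction groups, 1 point per gene, with filled squares for an adjusted p under 0.05 over all genes. Only *Jam2* and *Cldn19* are filled, and the open points below −1, *Cldn1*, *Cldn2*, *Crb3* and *Cgnl1*, are genes that were high in the WT embryos with high *Ttr*.

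Genes next to *Jam2* and *Cldn19* were examined to see whether a fall extended along the chromosome. Of the 5 tested genes within 250 kb of *Jam2*, *Atp5j* (1.9 kb away) had a log2 fold change of −0.03, *Gabpa* −0.08, *Mrpl39* 0.01, *App* 0.05 and *Gm10791* 0.19. None was called by edgeR, with a lowest adjusted p of 0.911, and 0 of the 5 had an unadjusted p under 0.05. Of the 13 tested genes within 250 kb of *Cldn19*, 0 were called, the lowest adjusted p was 0.907, and 2 had an unadjusted p under 0.05, and DESeq2 called 0 of the neighbours of either gene. These were *Ermap* at −0.56 and the pseudogene *Ldha-ps2* at 0.56, the pair whose embryos did not overlap, with group means of 0.304 to 0.481 CPM. Over all tested genes, 5.42% had an unadjusted p under 0.05 and 1.85% did not overlap. The nearest tested gene, *P3h1* at 6.4 kb, had −0.08. The others were *Ybx1* (−0.05), *AU022252* (0.05), *Tmem269* (−0.003), *Ppih* (−0.06), *Svbp* (−0.02), *Ccdc30* (−0.05), *Zfp691* (0.12), *Slc2a1* (−0.10), the glucose transporter of the blood-brain barrier, *Ppcs* (−0.10) and *Rimkla* (−0.03).

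How the 10 genes varied within genotypes was described after the genotype mean of each gene was removed, by Pearson's correlation of log2 CPM with 14372 genes over the 9 embryos. The points share their libraries, and the 3 highest of so many correlations are high by selection, so they are given without a test. *Cldn1* was most like *Slco1a4* (r = 0.998), *Ttr* (0.997) and *Slc4a5* (0.997), of which *Ttr* and *Slc4a5* are choroid plexus markers. *F11r* was most like *Apoe* (0.993), *Ace* (0.984) and *Col1a2* (0.984), of which *Col1a2* is a meningeal fibroblast marker. *Jam3* was most like *Tpx2* (0.998), *Arhgap19* (0.996) and *Nasp* (0.995), and *Tjp1* like *Irs1* (0.988), *Cep192* (0.987) and *Amotl1* (0.986). *Jam2*, whose pattern within genotypes was less closely matched, was nearest to *Gm45110* (0.946), *Gm5466* (0.945) and *Sos1* (0.934), and *Cldn19* to *Dpm1* (0.933), *H2-DMa* (0.931) and *Armc2* (0.927). *Cldn5* was nearest to *Irak1bp1* (0.978), *Prxl2a* (0.978) and *Rab5a* (0.973), *Cldn10* to *Pik3r6* (0.978), *Zfp558* (0.967) and *Ifit2* (0.966), *Cldn11* to *Pomgnt1* (0.976), *Nucb1* (0.938) and *Sirt3* (0.937), and *Cldn12* to *Gtf2e1* (0.987), *Smc1a* (0.987) and *Xrcc2* (0.986). Among the 10 genes themselves, the closest pair was *F11r* with *Cldn1* (r = 0.872), which was 0.227 in the 5 embryos with low *Ttr*, and the most opposed was *Cldn5* with *Tjp1* (r = −0.929), which was −0.905 in those embryos. *Jam2* and *Cldn19*, the pair low in HET, had r = 0.343 within genotypes over the 9 embryos and 0.988 over the 5 with low *Ttr*. The second value rests on 2 WT and 3 HET embryos after genotype means were removed. In those HET embryos *Cldn19* had 5, 13 and 11 counts. Another pair, *Cldn5* with *Cldn12*, was at −0.958 in the same 5 embryos, so nothing is read from the value of 0.988.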

How the data were processed

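Bulk forebrain RNA of 5 WT and 4 HET embryos was captured by polyadenylate selection and sequenced from TruSeq libraries. The deposited values are counts of reads per gene, which the authors made from 1 read of each pair with STAR 2.7.9a on GRCm38.p6 and featureCounts on GENCODE release M25, without normalization. The strand setting is not given in the sources used here. Of 55401 identifiers, 55141 were matched to GENCODE release M21 (also GRCm38) for positions and exon lengths.

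Genes were filtered with filterByExpr (minimum count 10), scaled by TMM and fitted without covariates in edgeR 4.0.16 (R 4.3.3), with Benjamini-Hochberg adjustment over all 17818 genes. Log2 CPM used a prior count of 2. The alternatives were DESeq2 1.42.0, other scalings and filters, each embryo left out, the embryos with *Ttr* under 100 CPM, and a choroid plexus covariate. The scripts were tested on simulated data. No libraries had identical counts. Precision covers counting error only where counts are given, since no molecular identifiers are described. P-values set the difference between genotypes against the spread between these embryos, which the fit estimates with information shared across genes. Litter is not given in the sample labels and was not in the model, so embryos were treated as independent.

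The genes and lists were chosen with earlier results of these data known. The genes named are the 10 junction genes; of the further list, those past the threshold, those without overlap and the 3 most abundant of each group; the tested neighbours within 250 kb; and the 3 genes most like each of the 10. *Crb3* and *Cgnl1* fall outside this rule and were named after their values were seen, as were *Gm48796*, *Gm12927* and *Kl* where a result touched them.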

Additional observations from a re-analysis of the deposited data

Results flagged for a closer look

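In 20 groups of embryos, 10 genes in 2 genotypes, Dixon's criterion at 95% marked 2 values, where chance marks about 1 in 20. *Jam2* in WT embryo 16 was at 39.8 CPM, below the 47.7 to 50.3 CPM of the other WT embryos, and still above every HET embryo. *Cldn1* in HET embryo 24 was at 4.05 CPM, above the 0.210 to 0.393 CPM of the other HET embryos, in the HET library with *Ttr* at 467 CPM.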

How the results depend on the processing

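The list was chosen on this contrast, so the calls of its genes describe the settings and are no support. *Jam2* was called lower in 16 of 16 alternatives and *Cldn19* in 15 of 16. Leaving out each embryo gave log2 fold changes of −1.68 to −1.57 for *Jam2* and −3.05 to −2.66 for *Cldn19*, and 2 of the 10 genes were called lower in each of these 9 fits. In the embryos with *Ttr* under 100 CPM, 1 of the 10 was called, *Cldn19* being lost with 2 WT and 3 HET embryos. Over all genes, edgeR called 5 higher and 20 lower in HET. DESeq2 called 21 higher and 64 lower, and the embryos with low *Ttr* gave 3 higher and 12 lower. With the choroid plexus covariate 23 genes were called, 2 of them higher and the rest lower. Without 1 embryo, 0 to 5 genes were higher and 13 to 20 lower. The cause of these shifts was not tested. The calls of 0 among the 71 further junction genes and the neighbours held in every alternative run. Of the genes not called, *Cldn1*, *F11r*, *Cldn5*, *Cldn11* and *Tjp1* changed sign in some alternative. All 30 pairs of likeness kept a positive correlation in the embryos with low *Ttr*. Those embryos were among the 9 over which the pairs had been picked as the highest, so the sign is no separate check. Only 1 of the 30 genes was then again among the 3 most alike. No paired analysis was possible because the groups share 1 embryo number, 5, which names separate embryos. Mean levels were lowest for *Cldn11*, *Cldn19* and *Cldn10*, at 1 to 131 counts per embryo, which limits their precision. *Cldn1* had 8 to 19 counts in each embryo with *Ttr* under 100 CPM, which limits its precision there.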
